A study of Mus musculus with 6 samples.

Results

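Cholesterol is built in the liver from acetyl-CoA, and the RNA levels of 29 genes of this system were measured in livers with a knockout of small Maf genes. The 29 genes were the listed genes of cholesterol synthesis, uptake and SREBP2 control to which the transcript accession of an array probe could be matched. They form 29 of the 21064 genes and transcripts tested, and a gene with several probes was read by its brightest one over the 6 arrays. All 29 were well above background on every array. The list holds 20 synthesis enzymes, 4 genes of the SREBP2 control circuit and 5 genes of sterol transport, uptake and storage.

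RNA came from livers of mice aged 5 weeks on a mixed background of 129Sv/J, C57BL/6J and ICR. There were 3 control mice, labelled wild type, and 3 mice in which small Maf genes were knocked out in liver alone (sMaf CKO). Each RNA sample, described by the submitters as independent of the others, was run on 1 one-colour Agilent array. The labels do not say which small Maf genes were deleted, which promoter drove the deletion, the sex of the mice, or the hour of collection. The small Maf family pairs with CNC factors such as NRF1 and NRF2 to bind DNA.

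Cholesterol synthesis runs from acetyl-CoA through mevalonate to farnesyl diphosphate, then through squalene and lanosterol to cholesterol. Most of its enzymes are transcribed under SREBP2, a membrane-bound factor. When sterols are scarce, the escort protein SCAP carries SREBP2 from the endoplasmic reticulum to the Golgi, where it is cut and freed for the nucleus, and when sterols are plentiful the INSIG proteins hold SCAP back. The liver is a main site of this synthesis and of cholesterol clearance from blood.

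The array files put the 75th percentile of processed signal between 483 and 961, and 58.0% to 73.6% of an array's probes were well above background. Over all genes, 114 passed limma with Benjamini-Hochberg adjustment at 0.05, 81 higher and 33 lower in sMaf CKO liver. Quantile normalization gave 18 higher and 4 lower. Each array left out in turn gave 6, 175 and 22 genes without control 1, 2 and 3, and 3, 11 and 294 without sMaf CKO 1, 2 and 3. Of the 3 small Maf genes, Mafg was at 1.88, 1.87 and 2.23 on control arrays 1 to 3 and at -2.97, -4.36 and -0.76 on sMaf CKO arrays 1 to 3, where each value is the log2 signal relative to the array's 75th percentile. The Mafg groups did not overlap, with a log2 fold change of -4.69 (SE 0.79, limma adjusted p = 0.0534, and 0.0208 with slide as a block). Maff and Mafk had log2 fold changes of 0.15 and 0.21 (adjusted p = 0.911 and 0.760). Arrays 1 and 2 of both genotypes were on one slide and array 3 of both on another, so values within each slide are given below.

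Of the 29 cholesterol genes, 25 had a lower mean in sMaf CKO liver, against 54.7% of all genes tested. Their median log2 fold change was -1.09, where all genes tested had a median of -0.05. The log2 fold change was below -1 for 16 members, which is 55.2% of them, against 3.77% of all genes. The limma test adjusted over all genes passed 1 member, Stard4, which was lower, against 0.157% of all genes called lower, and the same number passed with slide as a block (0.622% of all genes). At an unadjusted p under 0.05 in the limma fit across all genes, 17 members were lower, 58.6% of the list, against 8.1% of all genes. In 15 members all 3 sMaf CKO arrays lay below all 3 control arrays, 51.7% of the list, against 11.6% of all genes. In whole-liver RNA, fewer cells of a type and less RNA per cell cannot be told apart.

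The size of these differences depended on the array. Relative to the control mean of each gene, the median member stood at 0.26, -0.02 and -0.27 on control arrays 1, 2 and 3. It stood at -1.66, -0.54 and -0.65 on sMaf CKO arrays 1, 2 and 3. The sMaf CKO 1 array was the lowest of its group for 22 of 29 members, and control 3 was the lowest control for 18. The sMaf CKO 1 array also had the highest 75th percentile of signal, 961 against 483 to 668 on the other arrays, and the highest share of probes well above background, 73.6%, and the part of this in the cholesterol values was not tested. Without sMaf CKO 1, 25 members still had a negative log2 fold change, the median was -0.72, and 4 members were below -1 (Mvd, Cyp51, Hsd17b7 and Stard4, against 3.69% of all genes). The count lower at an unadjusted p under 0.05 in limma was then 12 (6.06% of all genes), and it was 9 without control 1 (5.44%). Spike-in scaling moved the median of all genes to 0.28, and with it 23 members were negative (25.9% of all genes), 6 were below -1 (1.66%) and the members' median was -0.75. Within the first slide, 2 arrays against 2, the median was -1.38 and 25 members were negative. Within the second slide, 1 array against 1, the median was -0.34, 26 members were negative against 48.7% of all genes, and 3 were below -1 (Stard4, Hsd17b7 and Insig1, against 6.79% of all genes).

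**Figure D1:**
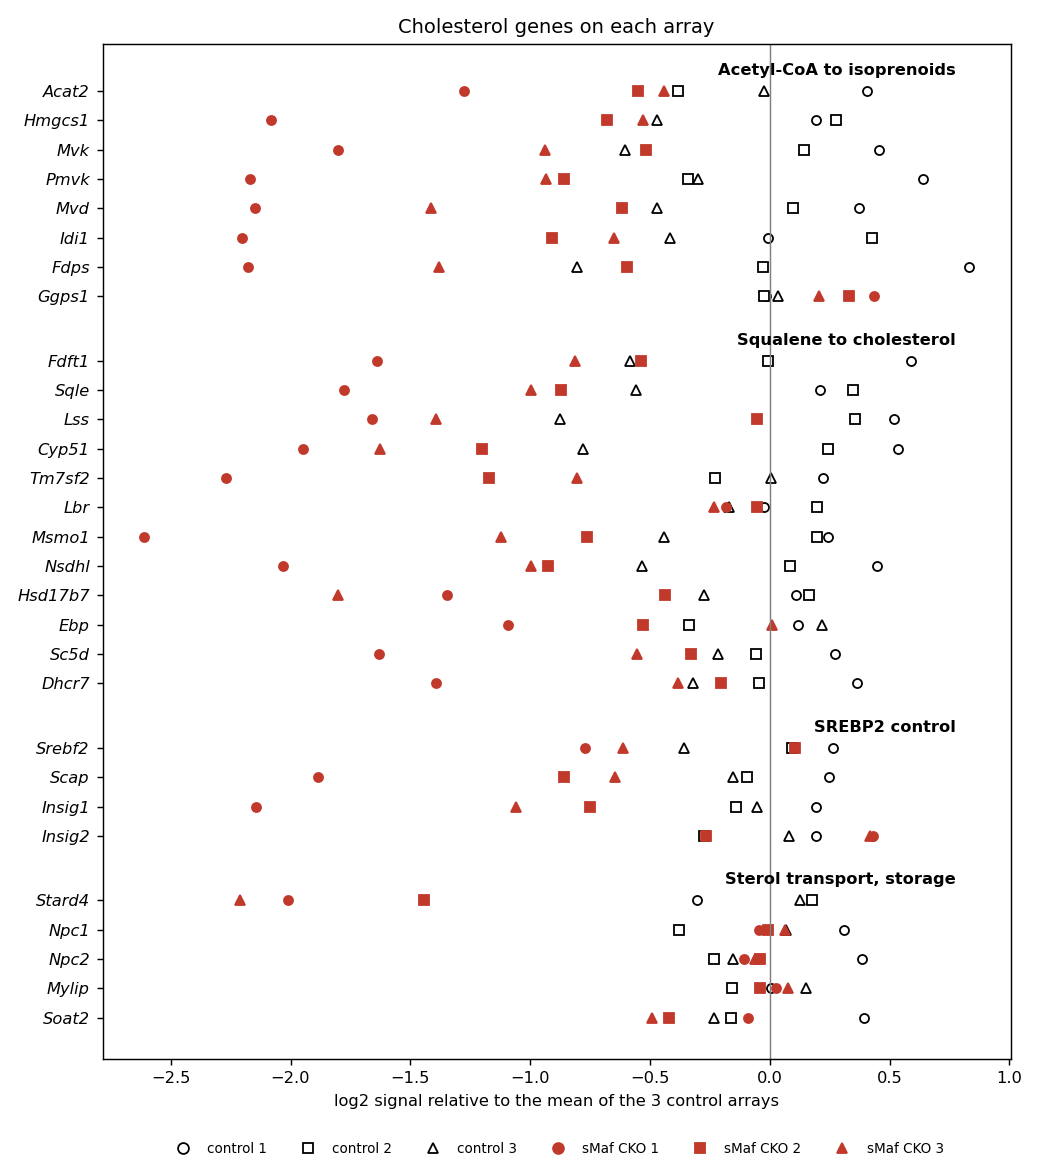
Log2 signal of each of the 29 cholesterol genes on each of the 6 arrays, as the difference from the mean of the 3 control arrays (x axis), with genes in rows grouped by pathway step. Open symbols are control arrays and filled red symbols are sMaf CKO arrays. Most synthesis enzymes have sMaf CKO 1 far to the left, near -2, with sMaf CKO 2 and 3 between it and the controls, while Ggps1, Insig2, Npc1, Npc2 and Mylip lie near 0 or to the right on most arrays.

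**Figure D2:**
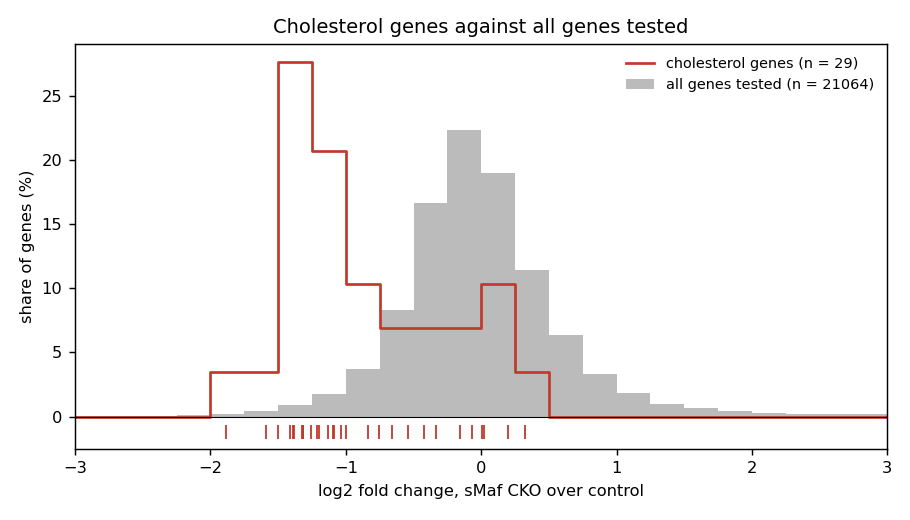
Share of genes (y axis, percent) by log2 fold change of sMaf CKO over control (x axis) for the 29 cholesterol genes (red outline) and all 21064 genes tested (grey bars), with a tick for each member; genes beyond the axis are not drawn. The members have a median of -1.09 and a second small group near 0, where all genes tested have their median of -0.05.

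The enzymes from acetyl-CoA to the isoprenoid diphosphates had a median log2 fold change of -1.18 over 8 genes, and 7 of the 8 were lower at an unadjusted p under 0.05 in the limma fit. None of the 8 passed after adjustment. Acat2, which joins acetyl-CoA units, was at 5.71 ± 0.39 (SD, n = 3) in control and 4.96 ± 0.45 in sMaf CKO liver, and the mouse genome holds a close copy of it, Acat3, which its probe may also read. Hmgcs1, the cytosolic HMG-CoA synthase, was at 6.62, 6.71 and 5.96 on control arrays 1 to 3 and at 4.35, 5.75 and 5.90 on sMaf CKO arrays 1 to 3. Its groups did not overlap, but sMaf CKO 3 lay just under control 3, so that the log2 fold change was -1.62 within the first slide and -0.06 within the second. Over all arrays it was -1.10 (SE 0.44, limma adjusted p = 0.273).

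The next 3 enzymes convert mevalonate to isopentenyl diphosphate. Mvk, mevalonate kinase, was at 1.47, 1.16 and 0.41 in the controls and at -0.79, 0.50 and 0.08 in the knockouts, and sMaf CKO 2 lay above control 3. Pmvk, phosphomevalonate kinase, was at 6.03, 5.05 and 5.10 against 3.23, 4.54 and 4.46. Mvd, mevalonate diphosphate decarboxylase, was at 1.999, 1.72 and 1.16 against -0.52, 1.01 and 0.21. Pmvk and Mvd did not overlap between genotypes, and their log2 fold changes were -1.32 (SE 0.43, limma adjusted p = 0.201) and -1.39 (SE 0.41, adjusted p = 0.172). For Mvk it was -1.09 (SE 0.40, adjusted p = 0.246).

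Idi1, which isomerises isopentenyl diphosphate, had values of 5.07, 5.51 and 4.66 in control and 2.88, 4.17 and 4.43 in sMaf CKO liver, without overlap. Fdps makes farnesyl diphosphate, the last intermediate shared by sterols and other isoprenoids. It varied most among the controls, at 6.29, 5.43 and 4.65, and was at 3.28, 4.86 and 4.07 in the knockouts, where sMaf CKO 2 lay above control 3. The log2 fold changes were -1.25 for Idi1 and -1.38 for Fdps, with limma adjusted p of 0.220 and 0.244.

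Ggps1 extends farnesyl diphosphate to geranylgeranyl diphosphate, away from sterols and towards protein prenylation. It was the only enzyme of the 20 with a positive log2 fold change. It stood at -1.07, -1.07 and -1.01 in control and at -0.61, -0.72 and -0.85 in sMaf CKO liver, so all knockout arrays were above all control arrays. The log2 fold change was 0.32 (95% interval -0.13 to 0.78, limma adjusted p = 0.444), and a second, dimmer probe of the gene gave a value at 0 to 2 decimals.

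From squalene to cholesterol, all 12 enzymes had a negative log2 fold change, with a median of -1.12, and 0 of the 12 passed the adjusted limma test while 7 were lower at an unadjusted p under 0.05 in the same fit. Fdft1, squalene synthase, was at 4.23 ± 0.59 (SD, n = 3) in control and 3.23 ± 0.58 in sMaf CKO liver, with overlap. A second, much dimmer Fdft1 probe gave a log2 fold change of -0.15, and the mean of both probes gave -0.57. Sqle, squalene epoxidase, catalyses a rate-limiting oxidation. It was at 4.24, 4.38 and 3.47 in control and at 2.25, 3.16 and 3.03 in sMaf CKO liver, with every knockout array below every control array and a log2 fold change of -1.21 (SE 0.35, limma adjusted p = 0.162). Lss, which closes the ring to lanosterol, was at 1.61 ± 0.76 and 0.58 ± 0.86, and its groups overlapped.

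Cyp51, the cytochrome P450 that demethylates lanosterol, had the most negative log2 fold change of the 20 enzymes. Its values were 3.08, 2.79 and 1.76 in control and 0.60, 1.34 and 0.92 in sMaf CKO liver. Control 3 was the lowest control and still above all knockouts. The log2 fold change was -1.59 (SE 0.38, limma adjusted p = 0.116 and 0.0647 with slide as a block), or 3.01-fold lower. Its 3 probes ran from -1.78 to -1.50, and the difference was -1.96 within the first slide and -0.85 within the second.

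Tm7sf2 and Lbr encode sterol reductases that can act on the same intermediate after Cyp51. Lbr is also a protein of the inner nuclear membrane. Tm7sf2 was at 6.98, 6.53 and 6.76 in control and at 4.49, 5.58 and 5.95 in sMaf CKO liver, without overlap, and its log2 fold change was -1.41 (SE 0.38, limma adjusted p = 0.152). Lbr was at 0.66, 0.88 and 0.51 in control and at 0.50, 0.63 and 0.45 in sMaf CKO liver, with overlap. Its log2 fold change was -0.15 (95% interval -0.64 to 0.33) and was 0.18 with spike-in scaling. The difference between both genes' log2 values within an array was 6.07 ± 0.37 (SD, n = 3) in control and 4.81 ± 0.77 in sMaf CKO liver, a pair picked after its values were seen and so not tested.

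Msmo1, Nsdhl and Hsd17b7 remove the methyl groups at carbon C4 of the sterol ring. Msmo1, the methyl oxidase, was at 6.62, 6.58 and 5.94 in control and at 3.77, 5.62 and 5.26 in sMaf CKO liver. The sMaf CKO 1 value lay furthest from the controls, and the log2 fold change was -1.50 (SE 0.48, limma adjusted p = 0.195). Nsdhl, the dehydrogenase, was at 2.36, 1.998 and 1.38 against -0.12, 0.99 and 0.92, and its 3 probes ran from -1.69 to -1.32 in log2 fold change. Hsd17b7, the keto reductase, was at 3.48, 3.53 and 3.096 against 2.02, 2.93 and 1.57. In Hsd17b7 the lowest knockout was sMaf CKO 3, and the difference of -1.53 within the second slide was more negative than the -1.03 within the first. All 3 genes were without overlap between the genotypes.

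The last enzymes act on the double bonds of the sterol ring. Ebp, the sterol isomerase, had a log2 fold change of -0.54 (95% interval -1.29 to 0.21), Sc5d, the desaturase, of -0.84 (-1.68 to 0.0049), and Dhcr7, which reduces 7-dehydrocholesterol to cholesterol, of -0.66 (-1.49 to 0.17). Sc5d did not overlap between genotypes. In Ebp, sMaf CKO 3 lay above control 2, and in Dhcr7, sMaf CKO 2 lay above control 3.

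The promoters of these enzymes are shown because SREBP2 acts through sterol response elements that sit beside boxes for the factors NF-Y and SP1. RefSeq promoter windows on GRCm38.p6, from 250 bases before to 50 after the start site, were found for 23 of the 29 genes. Fdps, Fdft1, Sqle, Stard4, Npc1 and Soat2 had no entry. Capitals mark 3 motifs on either strand: the sterol response element TCACCCCAC, the NF-Y box CCAAT and the GC box GGGCGG. The stretches are from Hmgcs1, the member holding the exact sterol response element, and from 3 late enzymes with both boxes.
Hmgcs1, plus strand, chr13:119690201-119690250: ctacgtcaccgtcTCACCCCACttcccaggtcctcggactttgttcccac
Cyp51, minus strand, chr5:4104698-4104837: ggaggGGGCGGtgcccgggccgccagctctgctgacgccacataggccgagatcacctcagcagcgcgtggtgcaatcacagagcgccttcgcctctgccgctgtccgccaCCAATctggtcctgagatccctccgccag
Nsdhl, plus strand, chrX:72918401-72918520: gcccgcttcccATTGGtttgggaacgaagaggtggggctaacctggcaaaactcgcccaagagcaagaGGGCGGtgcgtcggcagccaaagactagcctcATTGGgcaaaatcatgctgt
Msmo1, minus strand, chr8:64733579-64733688: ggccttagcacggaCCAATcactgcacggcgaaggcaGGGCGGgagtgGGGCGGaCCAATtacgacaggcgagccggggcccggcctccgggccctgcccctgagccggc

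The exact sterol response element TCACCCCAC was in the window of 1 of the 23 members, Hmgcs1, against 0.614% of 27025 genes. The looser TCANNCCAC was in 2, Hmgcs1 and Mylip, against 4.78% of genes. The NF-Y box was in 21 of the 23 against 41.1% of genes, and the GC box in 21 against 38.2%. The E-box CACGTG was in 5, namely Dhcr7, Hsd17b7, Insig1, Sc5d and Scap, against 8.09%. Ggps1, Lbr, Insig2, Npc2 and Mylip, whose log2 fold changes lay between -0.15 and 0.32 on the brightest probe, also held an NF-Y box. The shares here and below are of all genes with a promoter window, whether or not they were expressed in liver or tested on the arrays. Shares among expressed genes alone were not computed. A match describes letters in a window and not a bound site.

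The TGACNNNGC core that CNC and small Maf pairs bind was in 4 of the 23 windows, among them those of Mvk, Hsd17b7 and Dhcr7, against 13.99% of genes. Those of Mvk and Dhcr7 are shown with this element in capitals, since it relates to the deleted factors, and the Dhcr7 copy lies on the opposite strand.
Mvk, plus strand, chr5:114444037-114444066: aggcccggggaTGACTCCGCcccgcagccg
Dhcr7, plus strand, chr7:143829986-143830015: cctcccaccaaGCGGAGTCAgaccgccgac

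In the SREBP2 control circuit, the median log2 fold change was -0.78 over 4 genes and 0 passed the adjusted limma test, while 2 were lower at an unadjusted p under 0.05. Srebf2, which encodes SREBP2 itself, was at -0.15, -0.32 and -0.77 in control and at -1.18, -0.30 and -1.02 in sMaf CKO liver. The groups overlapped, since sMaf CKO 2 was as high as control 2, and the log2 fold change was -0.43 (95% interval -1.13 to 0.28). Scap, the escort protein, was at 6.48, 6.14 and 6.08 in control and at 4.35, 5.37 and 5.59 in sMaf CKO liver, without overlap, for a log2 fold change of -1.13 (SE 0.35, limma adjusted p = 0.185).

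Insig1 and Insig2 encode the proteins that hold SCAP back, and Insig1 is itself a target of SREBP2. Insig1 was at 2.21, 1.88 and 1.97 in control and at -0.13, 1.27 and 0.96 in sMaf CKO liver, with every knockout array below every control. The log2 fold change was -1.32 (SE 0.37, limma adjusted p = 0.157), -1.47 within the first slide and -1.01 within the second. The other Insig1 probe gave -0.75 and the mean of both gave -1.03. Insig2 was at 4.19, 3.72 and 4.07 in control and at 4.42, 3.73 and 4.41 in sMaf CKO liver, where the groups overlapped. Its log2 fold change was 0.19 (95% interval -0.44 to 0.83), although its other probe gave -0.37 and the mean of both gave -0.09. On the brightest probe of each gene, the difference Insig1 minus Insig2 within an array was -1.98 ± 0.13 (SD, n = 3) in control. In sMaf CKO liver it was -3.49 ± 1.05, and the pair was again picked after its values were seen. The other probes of the pair differed less in log2 fold change (-0.75 and -0.37).

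Both Insig promoters held NF-Y boxes, and they are shown because the pair differed in log2 fold change on its brightest probes. Capitals mark the same 3 motifs as above.
Insig1, plus strand, chr5:28071182-28071301: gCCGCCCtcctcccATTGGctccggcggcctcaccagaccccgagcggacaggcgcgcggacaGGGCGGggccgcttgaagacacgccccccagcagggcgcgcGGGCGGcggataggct
Insig2, minus strand, chr1:121332610-121332729: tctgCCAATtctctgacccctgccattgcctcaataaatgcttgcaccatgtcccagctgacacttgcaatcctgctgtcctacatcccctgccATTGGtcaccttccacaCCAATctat
The Insig1 stretch holds 3 GC boxes and 1 NF-Y box, and the Insig2 stretch holds 3 NF-Y boxes and no GC box. It comes from 1 of 3 Insig2 windows, and the other windows of that gene each hold a GC box.

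Among the genes of sterol transport, uptake and storage, Stard4 fell and the other 4 lay near 0 or slightly below. Stard4 encodes a sterol-binding protein that moves cholesterol between membranes, and it is a known SREBP2 target. It was at 4.19, 4.67 and 4.62 on control arrays 1 to 3 and at 2.48, 3.05 and 2.28 on sMaf CKO arrays 1 to 3. The gap between the lowest control and the highest knockout was wider than the spread within either group. Stard4 was 3.70-fold lower, with a log2 fold change of -1.89 (SE 0.28, 95% interval -2.53 to -1.25, limma adjusted p = 0.0459), and its 3 probes ran from -1.89 to -1.52. The difference was -1.66 within the first slide and -2.34 within the second.

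The Stard4 call stood close to the threshold. Its adjusted p was 0.151, 0.0699 and 0.136 without control 1, 2 and 3, 0.155 and 0.0841 without sMaf CKO 1 and 2, and 0.0443 without sMaf CKO 3, with log2 fold changes from -2.11 to -1.73. With quantile normalization it was 0.0742 and with spike-in scaling 0.405, at log2 fold changes of -1.71 and -1.56.

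Npc1 and Npc2 export cholesterol from lysosomes. Npc1 was at 2.10, 1.41 and 1.86 in control and at 1.74, 1.78 and 1.85 in sMaf CKO liver, and Npc2 was at 3.75 ± 0.34 (SD, n = 3) and 3.68 ± 0.04. The knockout values of both lay within the range of the controls. Their log2 fold changes were 0.01 (95% interval -0.55 to 0.56) and -0.07 (-0.62 to 0.48). Mylip, a ubiquitin ligase that directs lipoprotein receptors to degradation, had a log2 fold change of 0.02 (-0.45 to 0.49), but its other probe gave -0.89. Soat2, which esterifies cholesterol for storage and secretion, had -0.33 (-0.92 to 0.26). The signs for Npc1, Npc2 and Mylip turned under other settings of scaling.

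**Figure D3:**
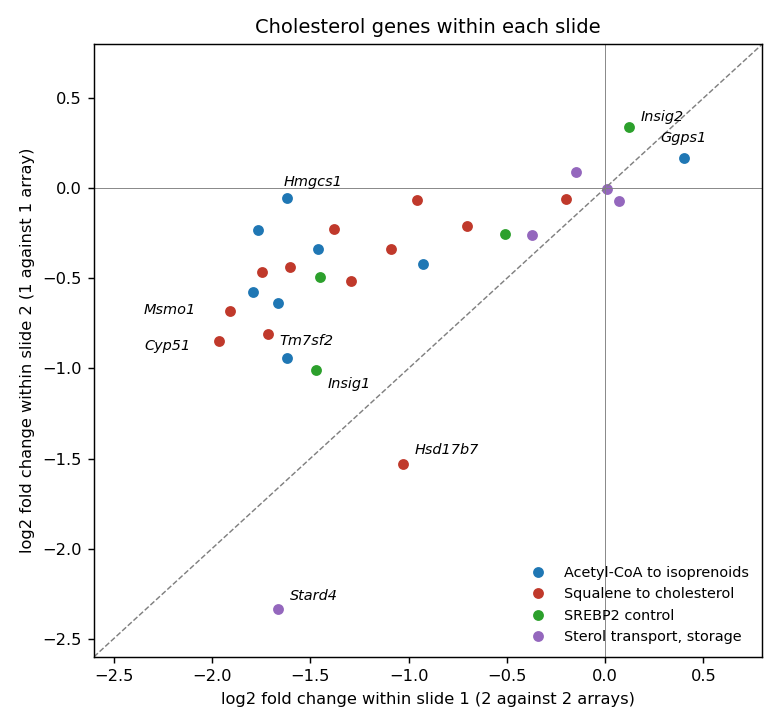
Log2 fold change of each cholesterol gene within the first slide (x axis, 2 arrays against 2) and within the second slide (y axis, 1 against 1), coloured by pathway step, with equal values on the dashed line. Most enzymes lie above the line with a smaller difference on the second slide, such as Hmgcs1 at -1.62 and -0.06, while Stard4 (-1.66 and -2.34) and Hsd17b7 (-1.03 and -1.53) lie below it.

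Genes next to the pathway were read in the same fit, where 16.8% of all genes had an unadjusted p under 0.05 in either direction. The counts at that p in the lists below are also in either direction. The 5 genes of acetyl-CoA supply all had negative log2 fold changes, with a median of -1.03 and 0 past the adjusted limma test (3 at an unadjusted p under 0.05). Acat1, the mitochondrial thiolase, was at -1.03 (adjusted p = 0.185) and Acss2, the cytosolic acetyl-CoA synthetase, at -1.57 (0.216). All 8 tested genes for electron partners of the sterol enzymes were negative too, with a median of -0.65, 0 past the adjusted test and 3 at an unadjusted p under 0.05. Among them were Pgrmc1 at -0.98 (adjusted p = 0.129), a haem-binding partner of Cyp51, and Cyb5b at -0.74 (0.249).

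Fatty acid synthesis is driven mainly by the related factor SREBP1. All 17 of its listed genes had negative log2 fold changes, with a median of -0.67, 0 past the adjusted limma test and 8 at an unadjusted p under 0.05. The median was -0.49 with quantile normalization, where Scd1 turned to 0.03. It was -0.34 with spike-in scaling, where Elovl6 and Mlxipl turned to 0.04 and 0.06. The other listed genes stayed negative under both scalings. Me1, malic enzyme, was at -2.43 (SE 0.42, limma adjusted p = 0.0567, and 0.0470 with slide as a block) and Fads1, a fatty acid desaturase, at -0.84 (0.176). Whether the cholesterol genes and these genes differed in the size of their change was not tested. In the LXR list, which shares Srebf1 with the fatty acid list, 6 of 8 were negative with a median of -0.59, 0 passed the adjusted test and 4 had an unadjusted p under 0.05. Abcg8 and Abcg5, which together form the canalicular sterol exporter, were at -1.91 (SE 0.33, limma adjusted p = 0.0555) and -1.48 (SE 0.37, adjusted p = 0.131). With slide as a block in limma, Abcg8 had an adjusted p of 0.0470.

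Other parts of sterol biology stayed near the median of all genes. The non-sterol isoprenoid branch had a median of -0.06 over 14 genes (9 negative), with Fntb, a farnesyltransferase subunit, at 0.71 (limma adjusted p = 0.167) and Fnta, its partner, at -0.47 (0.364). Further sterol sensing and degradation genes had a median of -0.04 over 12 (6 negative), with Paqr3 at -1.45 (adjusted p = 0.166, and 0.0369 with slide as a block) and Mbtps2, a protease that cuts SREBPs, at 0.54 (0.262). Both had dim signal, and Paqr3 was well above background on only 4 of the 6 arrays and Mbtps2 on 5. Further transport and storage genes had a median of -0.04 over 12 (8 negative). Their smallest p belonged to Soat1, the other cholesterol acyltransferase, at 0.97 (SE 0.22, adjusted p = 0.106), and to Gramd1b at 0.91 (0.278). In these 3 lists 0 genes passed the adjusted limma test, and 1, 2 and 2 had an unadjusted p under 0.05, shares at or below the 16.8% of all genes.

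Several values moved along with the cholesterol genes. Among 9 tested genes of fasting, Fgf21, a hepatokine, rose with a log2 fold change of 3.42 (SE 0.43, limma adjusted p = 0.0367), while the list median was -0.25 and 5 were negative. Among 11 tested clock genes, Arntl, the core activator, rose by 2.37 (SE 0.32, adjusted p = 0.0382) and Per3, a repressor, fell with -1.84 (SE 0.27, adjusted p = 0.0459), and the list median was -0.82 with 9 negative. Leaving out 1 array gave limma adjusted p up to 0.128 for Fgf21, 0.143 for Arntl and 0.161 for Per3, and none of the 3 passed without control 1 or 3 or without sMaf CKO 1 or 2. Without control 2 Per3 alone of them missed, at 0.0656. On each array the clock median was -0.09, 0.03 and 0.14 in control and -0.78, -0.73 and -0.60 in sMaf CKO liver. The part of feeding state or time of day in the cholesterol values was not tested.

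All 13 tested hepatocyte markers had negative log2 fold changes, with a median of -0.63 and 1 lower after adjustment, Tdo2 at -1.86 (SE 0.25, limma adjusted p = 0.0382). The size depended on scaling: the median was -0.25 with quantile normalization and -0.30 with spike-in scaling. Fgb alone turned positive under these scalings, at 0.09 and 0.11. Tdo2 missed the threshold with any array but sMaf CKO 3 left out (0.0543 to 0.134). The log2 summed level of the markers ranged from 11.45 to 11.83 in control and from 10.80 to 11.63 in sMaf CKO liver, and their array medians were -1.18, -0.56 and -0.20 on sMaf CKO 1, 2 and 3. The lowest array for the hepatocyte markers was thus sMaf CKO 1, as for the cholesterol genes and for most of the pathway lists. All 7 Kupffer cell markers were positive, with a median of 0.61, 0 past the adjusted test without a block, 3 at an unadjusted p under 0.05 in limma, and a log2 summed level of 6.26 to 6.96 in control and 7.49 to 8.66 in sMaf CKO liver. With slide as a block Marco passed (log2 fold change 3.73, limma adjusted p = 0.0107). Of 8 tested markers of monocyte-derived macrophages, 6 were positive and 2 negative. Trem2 rose by 4.18 (SE 0.34, limma adjusted p = 0.0105) and was well above background on 2 of the 3 control arrays. Gpnmb was well above background on all 3 sMaf CKO arrays and on 0 control arrays. It met the detection filter only through the knockout group, so its limma result is not read as a test. The 2 negative markers were Ly6c2, the brightest of the list in both groups, at -0.85 (limma adjusted p = 0.289), and Cx3cr1 at -0.03. Without control 1 the limma adjusted p was 0.0761 for Trem2. The median of that list was 0.90 and its log2 summed level was 4.93 to 5.58 in control and 4.81 to 5.40 in sMaf CKO liver.

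Of the other cell types, 0 markers passed the adjusted limma test, and 3 stellate, 1 cholangiocyte and 1 erythroid marker had an unadjusted p under 0.05, where 16.8% of all genes did. The 7 stellate cell markers had a median of 0.47 (0 negative), with a log2 summed level of 4.51 to 4.98 in control and 5.11 to 5.30 in sMaf CKO liver. The medians were 0.24 for 6 cholangiocyte markers, -0.16 for 7 endothelial, 0.18 for 6 lymphocyte, -0.05 for 5 neutrophil and 0.30 for 6 erythroid markers. The part of cell makeup in the cholesterol values was not tested.

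**Figure D4:**
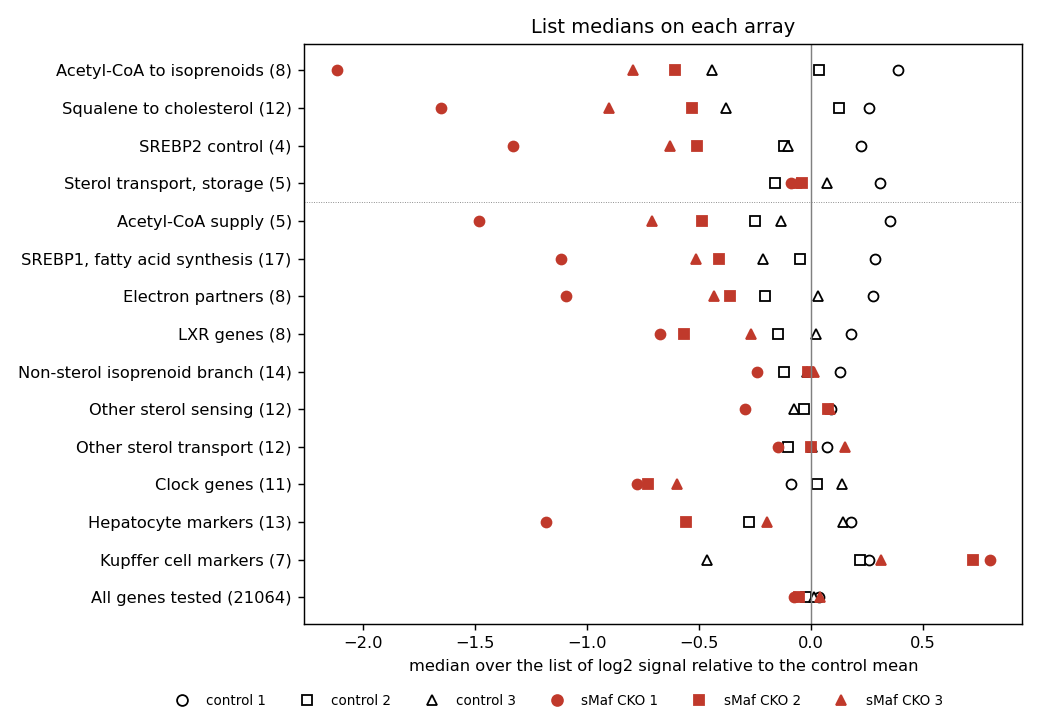
Median over each gene list of the log2 signal relative to the control mean (x axis) on each of the 6 arrays, for the 4 pathway steps (top) and for neighbouring pathways, clock genes, 2 marker lists and all genes tested (bottom), with the number of genes in brackets. The sMaf CKO 1 array (filled circle) is the lowest for every list except the step of sterol transport and storage and the Kupffer cell markers. All genes tested stay near 0 on every array.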

How the data were processed

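Per the file headers, the authors read spot intensity with Agilent Feature Extraction (version 10.7.3.1, GE1_107_Sep09 protocol), which corrects background array by array. The authors also deposited a table of log2 values. Each column matches the scaled log2 signal described next, centred on the median of each probe (r = 0.99999 on each array over 41121 probes), with column medians of 0.05, -0.02 and 0.08 in control and -0.10, -0.11 and 0.09 in sMaf CKO arrays 1 to 3, so its scale, centring and direction are known. It served as an alternative.

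Flagged outlier spots were dropped, repeat spots averaged, and the 75th percentile of an array's non-control probes subtracted from its log2 processed signal. A probe had to be well above background on 3 or more of the 6 arrays (27865 of 41174), and 0 were saturated. Transcript accessions gave 1 symbol to 26690 probes and none to 14484, which were tested under their accession. Groups, taken from the genotype in the labels, were tested by limma (version 3.58.1, R 4.3.3; lmFit, then eBayes) with genotype as the single term and Benjamini-Hochberg adjustment over all 21064 genes. The number of arrays, 6, limits the precision.

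The members and lists were chosen with earlier results of these data known. Of a further pathway list, the text names genes past the test, or else the 2 with the smallest p; a few more were picked after their values were seen. Of the further lists, not tested were Pdss2, Faxdc2, Pck1, Bmal1 (the same gene as Arntl), Npas2, Cps1, Cd68, Trbc2 and Ly6g. Alternatives covered scaling, background correction, the filter on dim probes, the probe per gene, slide and replicate blocks, eBayes settings and each array left out. On simulated data for control against sMaf CKO (21017 genes), limma called 8.96%, 83.6% and 98.5% of genes with a simulated log2 change of 1, 2 and 4, with 5 false calls. The simulated noise was independent between genes and arrays, with no shift shared by many genes on an array. These shares and false calls therefore need not hold for the real arrays. A further promoter stretch is not reported here.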

Additional observations from a re-analysis of the deposited data

How the results depend on the processing

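Across 19 alternatives, 534 of 551 single-gene log2 fold changes kept their sign and 17 reversed. Many of these values could not reverse. The filters on dim probes, the slide and replicate blocks and the eBayes settings left each member's log2 fold change as it was. The mean of a gene's probes also changed nothing for genes with 1 probe, and the authors' table holds nearly the same signal. The share that kept its sign is therefore no measure of robustness. Stard4 was the single called member, and its call was lost in 9. The reversals were in genes near 0. Lbr was at 0.18 under spike-in scaling and Insig2 at -0.090 with the mean of its probes. Npc1 was at -0.018 under median scaling, -0.020 under normexp background correction (offset 50, on median spot signals) and -0.0043 within slide 2, and Mylip at -0.0012, -0.080 and -0.074 under the same settings and -0.43 with the mean of its probes. Npc2 was at 0.11, 0.26 and 0.090 under quantile normalization, spike-in scaling and within slide 2. Leaving out arrays reversed Npc1 (range -0.18 to 0.16), Npc2 (-0.19 to 0.12) and Mylip (-0.056 to 0.10). The median of the members was -0.34 within slide 2 and -1.33 to -0.72 with an array left out. The count of called members went from 1 to 0 under quantile normalization, spike-in scaling, no filter on dim probes and within slide 1, and was 0 to 1 with an array left out, where only the fit without sMaf CKO 3 kept it. Genes called overall (114) were 22 under quantile normalization, 252 under median scaling, 12 under spike-in scaling, 1 with no filter, 269 with a filter on all 6 arrays, 340 with slide as a block, 308 with trend and robust eBayes, 194 within slide 1, and 3 to 294 with an array left out. Genes called in the pathway lists (3) were 0, 6 and 1 under quantile, median and spike-in scaling, 0 with no filter, 6 with the all-array filter, 6 with slide as a block, 6 with trend and robust eBayes, and 0 to 4 with an array left out. The cause was not tested. Spike-in scaling moved the median of all genes from -0.05 to 0.28, and the members' median to -0.75. With the replicate block, 1 member and 290 genes were called; same-numbered arrays of both genotypes correlated at 0.063, 0.166 and 0.424, so the numbers were not taken to pair the samples, and not every array correlated best with its own number.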
